A study of Mus musculus with 6 samples.

Results

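Cystine import, transsulfuration and glutathione synthesis were followed through 8 genes in mProx24 cells, an established mouse line derived from kidney proximal tubule, strain C57B6 by its label. The genes were taken by name from the array annotation, Slc7a11, Cth, Cbs, Gclc, Gclm, Gss, Gsr and Ggt1, and all 8 were found, read by 10 probes, among 34789 gene names on the array. RNA was measured with 1 single-colour array for each of 6 conditions, so there are no replicates, no statistical test between conditions was run and the spread between cultures is unknown. The conditions were triple stimuli with rapamycin, triple stimuli, hypoxia, high glucose, high FFAs and control, FFAs being free fatty acids, here palmitate. Triple stimuli combined 1% oxygen, high glucose and palmitate, and rapamycin, an inhibitor of the growth kinase complex mTORC1, was added on top of them at 0.4 µg/ml for 12 hours ahead of palmitate. Per the labels, palmitate at 150 µM was bound to 0.15% albumin and left on for 9 hours, and oxygen was at 1% for 12 hours beforehand, against 20% on the other 3 arrays. Albumin is listed for the palmitate conditions only, so palmitate and albumin cannot be told apart. Glucose concentrations, and the vehicle of rapamycin, were not given in the sources used here.

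The arrays of high glucose and high FFAs carry opposite labels in the scanner files and in the authors' deposited value table, since each column of that table holds the values of the other scanner file. They are called array A (high glucose by its scanner file, high FFAs by the table) and array B (the other way round), and no statement is made on which stimulus either received. All 6 arrays lay on 1 slide, with the 3 at 1% oxygen in its second row and the 3 at 20% in its first, so the effect of oxygen and that of slide row cannot be told apart. Between 40.3% and 43.8% of 59305 spots were well above background per array, by the scanner software's own mark, and 0 were saturated. Of 16 markers of the proximal tubule 6 were well above background on all arrays (among them Lrp2, Cubn and Aqp1) and 9 on none, among them Hnf4a, Slc34a1 and Anpep. Of 4 epithelial markers Krt8 and Krt18 were well above background on all 6 arrays, and Epcam and Cdh1 on none. Podocyte markers were well above background on 0 arrays, and of the fibroblast, endothelial, leukocyte and distal nephron markers only Cd68 and Aqp2 were on all 6. In such bulk RNA, fewer cells of a type and less RNA per cell cannot be told apart.

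Glutathione is a peptide of glutamate, cysteine and glycine that keeps thiols reduced and detoxifies peroxides, and its synthesis is limited by cysteine. Cells obtain cysteine by importing cystine through the antiporter encoded by Slc7a11, which gives out glutamate in exchange, or by transsulfuration from methionine, in which the products of Cbs and Cth act in turn. The ligase of Gclc and Gclm and the synthase of Gss then build the peptide, the reductase of Gsr restores it from its oxidised form, and the surface enzyme of Ggt1, abundant on the brush border of the proximal tubule, cleaves it outside the cell. Slc7a11 is a known target of the stress factor ATF4 and of NRF2, and the ligase genes are known targets of NRF2.

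Promoters are shown for the 3 genes that mark the contrasts described further on: Slc7a11, highest on array A and in triple stimuli, Cbs, lower there, and Gclm, lower at 1% oxygen. Each is the 250 bases before the gene's start, 5′ to 3′, from RefSeq on build GRCm38.p6, and capitals mark matches, on either strand, to TGATGNAA (the composite element bound by C/EBP and ATF factors), TGACNNNGC (the core of the antioxidant response element) or ACGTG (the core of the hypoxia response element).
Slc7a11 (chr3:50443614-50443863, minus strand): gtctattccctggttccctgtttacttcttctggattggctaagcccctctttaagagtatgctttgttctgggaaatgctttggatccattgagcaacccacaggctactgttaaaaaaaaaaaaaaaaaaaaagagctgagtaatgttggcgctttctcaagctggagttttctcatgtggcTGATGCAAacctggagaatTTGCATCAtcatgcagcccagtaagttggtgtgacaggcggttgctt
Cbs (chr17:31637206-31637455, minus strand): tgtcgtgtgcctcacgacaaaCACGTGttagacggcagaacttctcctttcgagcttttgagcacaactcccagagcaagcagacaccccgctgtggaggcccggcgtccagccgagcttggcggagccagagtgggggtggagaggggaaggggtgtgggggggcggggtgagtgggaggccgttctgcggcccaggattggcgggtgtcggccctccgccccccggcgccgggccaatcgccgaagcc
Gclm (chr3:122245307-122245556, plus strand): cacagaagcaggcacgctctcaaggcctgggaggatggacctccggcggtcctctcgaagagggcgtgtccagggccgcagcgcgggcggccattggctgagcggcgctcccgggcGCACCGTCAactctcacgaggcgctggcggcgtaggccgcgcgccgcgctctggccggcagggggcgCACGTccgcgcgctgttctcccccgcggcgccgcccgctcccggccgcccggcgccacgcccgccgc
The Slc7a11 promoter held 2 matches to TGATGNAA, facing each other at -66 to -59 and at -47 to -40 from the start, and 0 matches to the other motifs. Of 32851 promoter windows of the same length, 3.45% held TGATGNAA, 10.2% TGACNNNGC and 16.6% ACGTG. The Cbs window held ACGTG on both strands, overlapping as a palindrome at -229 to -224, and no match to TGATGNAA. In the Gclm window TGACNNNGC was matched at -134 to -126 and ACGTG at -67 to -63. Promoters were found for 5 of the 8 genes; the window of Gss had 0 matches, and of the 4 start sites of Ggt1 2 had TGACNNNGC, 1 had ACGTG and 1 had none. A match describes these letters and is not evidence of binding.

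Over the 6 arrays Slc7a11, Cth and Cbs had the widest ranges, 3.59, 1.84 and 1.45 in log2 units, and the ligase and synthase genes and Gsr ranged between 0.55 and 0.91. The range of Slc7a11 runs down to its level on array B, which was not well above background, so its width is uncertain. In hypoxia against control the order of the genes was another, with Ggt1 at 0.77 and Gss at -0.59 against 0.16 for Cbs. A gene was counted as different at 2-fold or more, a log2 difference of at least 1 in size, provided that 1 or both arrays read its probe well above background. On array A against control 3 of 8 genes were counted, Slc7a11 and Cth higher and Cbs lower, where 1.57% of 17825 genes were counted higher and 0.903% lower (2.47% in either direction). In triple stimuli against control there were 2 of 8, Slc7a11 higher and Cbs lower (5.09% and 1.74% of 17805 genes, 6.82% in all). Against hypoxia, triple stimuli had 3 of 8, again Slc7a11 and Cth higher and Cbs lower (3.51% and 3.03% of 17079 genes, 6.55% in all). Triple stimuli with rapamycin against control had 3 of 8, Slc7a11 and Ggt1 higher and Cbs lower (4.58% and 1.8% of 17984 genes, 6.37% in all). The count was 0 of 8 on array B (0.308% of 17513 genes higher and 0.28% lower, 0.588% in all), in hypoxia (4.41% of 17808 genes higher and 0.46% lower, 4.87% in all) and in triple stimuli with rapamycin against triple stimuli (1.93% of 17261 genes higher and 2.14% lower, 4.08% in all). Of these comparisons 5 share the control array and 3 the triple stimuli array, so their counts are not independent.

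**Figure D1:**
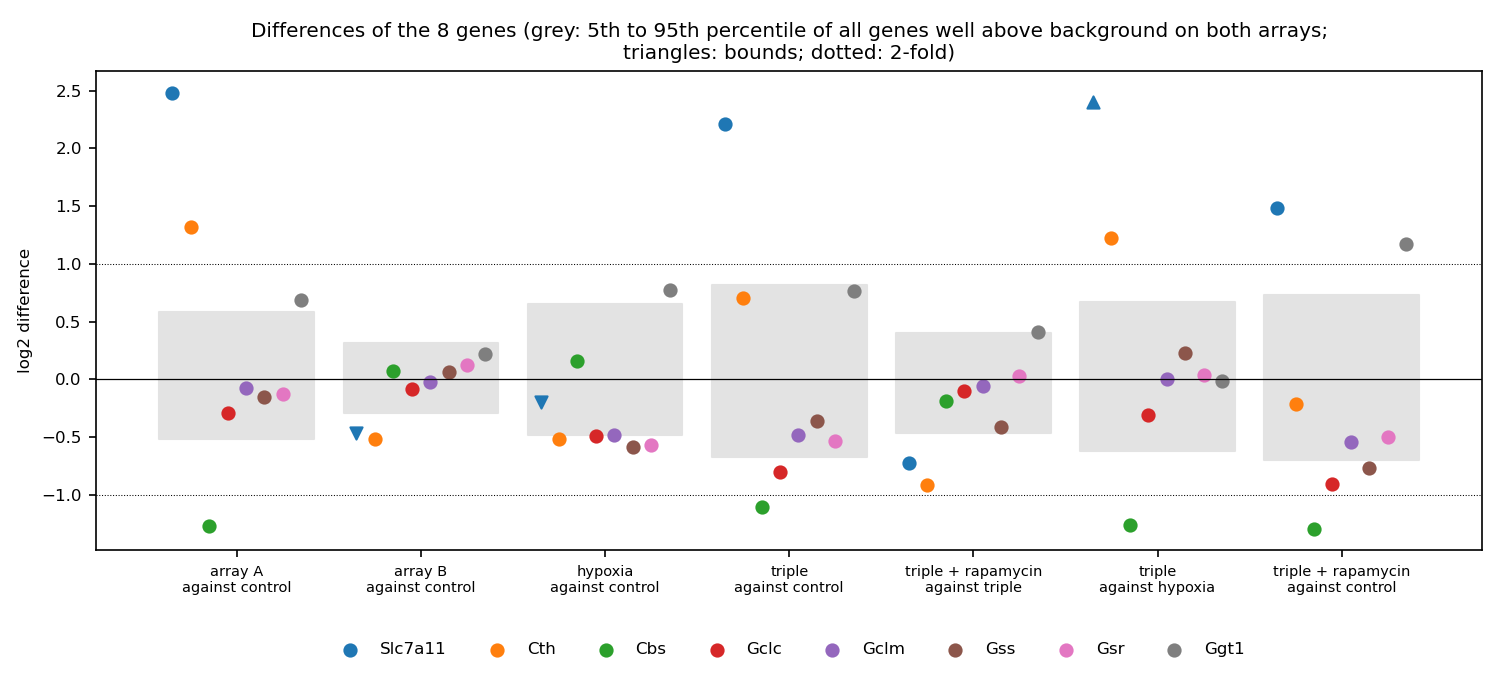
Log2 difference (vertical axis) of each of the 8 genes in 7 comparisons (horizontal axis), the first-named array minus the second; points are measured differences, triangles bounds, the grey bands run from the 5th to the 95th percentile of genes that both arrays read well above background, and dotted lines mark 2-fold. Slc7a11 reached 2.48 on array A and 2.21 in triple stimuli, and Cbs lay at -1.27 and -1.11.

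The median log2 difference of the 8 genes was -0.10 on array A (all genes -0.0086), 0.021 on array B (all genes 0.017), -0.49 in hypoxia (all genes -0.011) and -0.42 in triple stimuli against control (all genes -0.0062). It was -0.14 in triple stimuli with rapamycin against triple stimuli (all genes -0.029). In hypoxia 6 of the 8 genes lay below 0, and 0 of them reached 2-fold. Of genes that both arrays read well above background, 46.1% lay above 0 in hypoxia. The only error available for a value is the scanner software's own, which for a log2 difference of these probes ran between 0.20 and 0.58 and covers the reading of the spot, not the cells. Spots of the same probe on the same array had a median SD between 0.063 and 0.073 on the log2 scale.

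Slc7a11, which encodes the transport subunit of the cystine and glutamate antiporter, had the widest range of the 8. Its probe (mm9 chromosome 3, 50169700 to 50169759) read levels, in log2 units relative to the 75th percentile of the array, of -1.40 in triple stimuli with rapamycin, -0.67 in triple stimuli, -3.19 in hypoxia, -0.40 on array A, -4.00 on array B and -2.88 in control. It was not well above background in hypoxia and on array B, so differences that use these 2 levels are given as bounds. The arrays thus fell into 3 higher ones, array A, triple stimuli and triple stimuli with rapamycin, and 3 lower ones that included hypoxia. The gene was 5.57-fold higher on array A than in control (log2 difference 2.48, scanner error 0.27) and 4.62-fold higher in triple stimuli than in control (2.21, scanner error 0.28). It was at least 5.30-fold higher in triple stimuli than in hypoxia (log2 difference at least 2.41), while hypoxia differed from control by -0.20 or less, a bound within the scanner error of 0.43. With normexp, another background correction, these were 2.84-fold, 2.51-fold and at least 2.44-fold.

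With rapamycin, Slc7a11 was at 60.4% of its level in triple stimuli alone (log2 difference -0.73, scanner error 0.23). There it lay beyond the 5th percentile (-0.46) of genes that both arrays read well above background, but short of 2-fold. It was still 2.79-fold higher there than in control, a difference of 1.79-fold with normexp and so no longer counted. Its spot lay in the first of 6 bands of 64 spot rows, in which 10.9% of genes were at least 2-fold higher in triple stimuli, against 5.09% over the array. Scaled within bands, its value in triple stimuli against control changed by less than the scanner error.

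**Figure D2:**
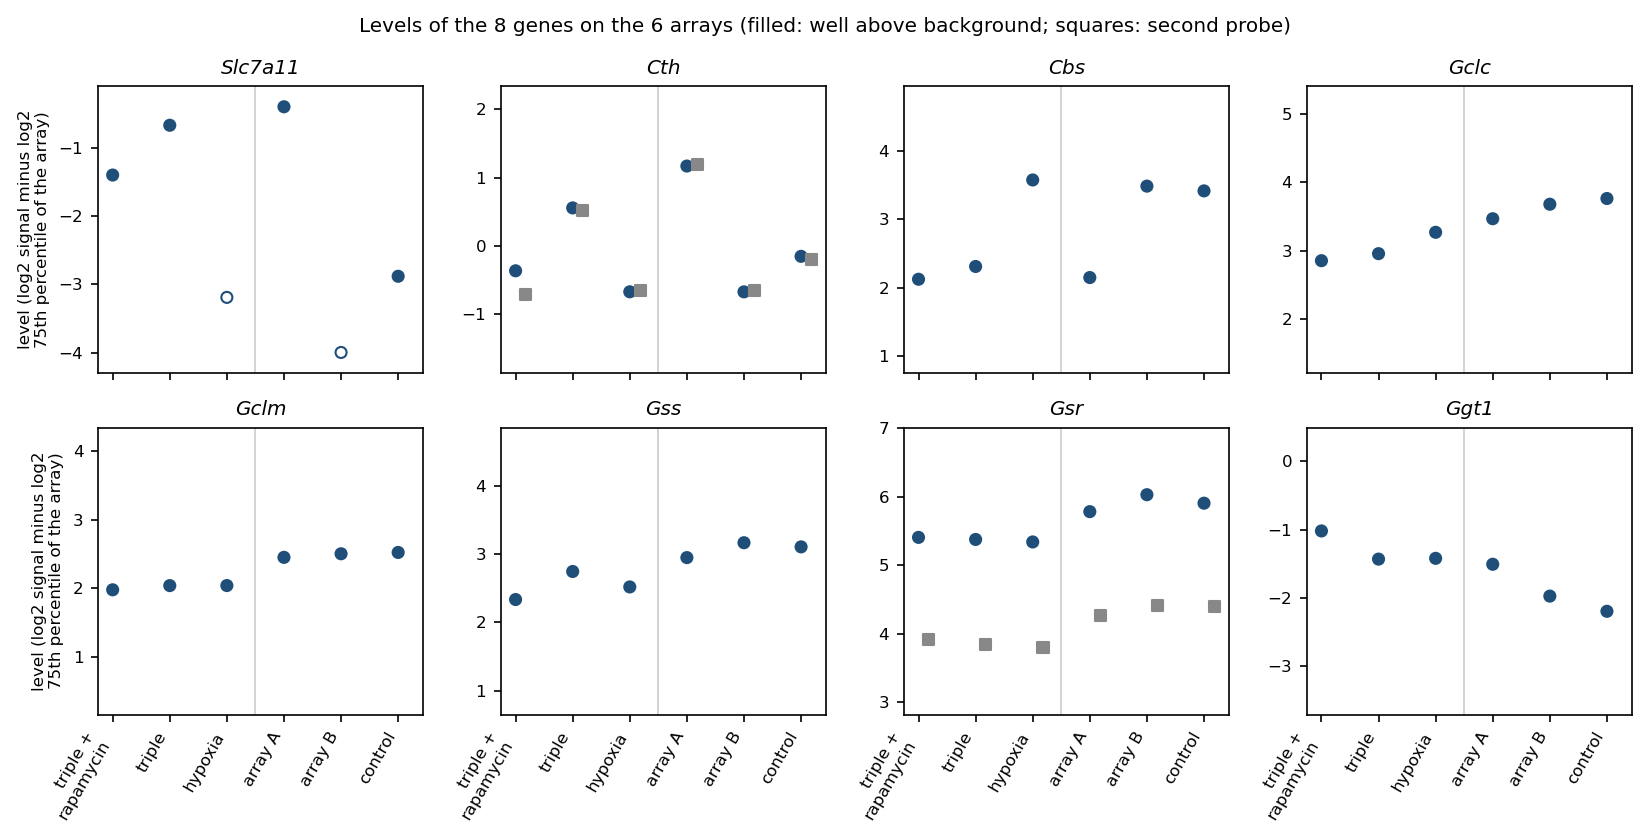
Level (log2 signal minus the log2 75th percentile of the array, vertical axis) of each of the 8 genes on the 6 arrays (horizontal axis), 1 point per probe and array; filled points were well above background, squares are the second probes of Cth and Gsr, each panel spans about the same range, and the grey line parts the arrays at 1% oxygen (left) from those at 20% (right). Slc7a11 and Cth were highest on array A and Cbs was lowest there and on both triple stimuli arrays.

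Cth, which encodes the lyase that releases cysteine from cystathionine, was read by 2 probes (chromosome 3, 157560183 to 157560242 and 157557667 to 157557726). The first gave levels of -0.36 in triple stimuli with rapamycin, 0.56 in triple stimuli, -0.67 in hypoxia, 1.17 on array A, -0.67 on array B and -0.15 in control. The other gave -0.71, 0.52, -0.65, 1.19, -0.65 and -0.20 on these arrays in the same order. Array A was highest by both probes. Hypoxia and array B were lowest by the first, at nearly equal levels, whereas by the other triple stimuli with rapamycin was lowest. Cth was 2.50-fold higher on array A than in control (log2 difference 1.32, other probe 1.39) and 1.63-fold higher in triple stimuli than in control (0.71, other probe 0.71). Triple stimuli exceeded hypoxia 2.34-fold (1.23, other probe 1.16), and 1.93-fold with normexp, where it was no longer counted. With rapamycin the level was 52.9% of that in triple stimuli by the first probe (-0.92) and 42.8% by the other (-1.22), so that the probes lay on either side of 2-fold. Against control, Cth was at -0.21 and -0.51 there by the 2 probes, the first of these within the scanner error, whereas Slc7a11 remained above it.

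Cbs encodes the synthase of the first step of transsulfuration, which joins homocysteine and serine into cystathionine, and on array A and in triple stimuli it differed from control in the opposite direction to Cth. Its probe (chromosome 17, 31749593 to 31749652) read 2.12 in triple stimuli with rapamycin, 2.31 in triple stimuli, 3.57 in hypoxia, 2.15 on array A, 3.48 on array B and 3.41 in control. These levels formed 2 sets, 3 arrays between 2.12 and 2.31 and 3 between 3.41 and 3.57, the same division of arrays as for Slc7a11 with the order turned. Cbs was at 41.5% of control on array A (log2 difference -1.27, scanner error 0.20), 40.8% in triple stimuli with rapamycin (-1.29) and 46.5% in triple stimuli (-1.11). Hypoxia and array B differed from control by 0.16 and 0.07, less than the scanner error. Rapamycin made a difference of -0.19 to triple stimuli, within the error, unlike for Slc7a11 and Cth. All these values kept their side of 2-fold in the 9 processing alternatives, with array A between -1.33 and -1.23.

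Cd68, a lysosomal glycoprotein gene used here as a leukocyte marker, divided the arrays in a like way, with levels of -0.27 in triple stimuli with rapamycin, 0.52 in triple stimuli, -0.57 in hypoxia, 1.05 on array A, -0.82 on array B and -0.87 in control. Ptprc, the other leukocyte marker measured, was well above background on 0 arrays, and 1 further leukocyte marker was not found by name. The proximal tubule markers had a median log2 difference from control of -0.46 in triple stimuli with rapamycin (2 of 6 measured at least 2-fold lower), -0.27 in triple stimuli (1 of 7 lower), 0.25 in hypoxia (0 of 6), -0.53 on array A (1 of 7 lower) and 0.10 on array B (0 of 6). Over all genes, the shares at least 2-fold lower in these comparisons, in the same order, were 1.8%, 1.74%, 0.46%, 0.903% and 0.28%. The all-gene medians were -0.036, -0.0062, -0.011, -0.0086 and 0.017. The part of the leukocyte and proximal tubule markers in the differences of Slc7a11, Cth and Cbs was not tested.

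The genes of glutathione synthesis and reduction were lower at 1% oxygen, by less than 2-fold. Of the 7 genes well above background on all 6 arrays, 4 had all 3 arrays at 1% oxygen below all 3 at 20%, namely Gclc, Gclm, Gss and Gsr, where 16.1% of 15088 genes had this order (17.2% in the first band of spot rows, which holds the spots of Gclc and Gss). Gclc, the catalytic subunit of glutamate-cysteine ligase (chromosome 9, 77641296 to 77641355), read 2.85 in triple stimuli with rapamycin, 2.96 in triple stimuli, 3.27 in hypoxia, 3.47 on array A, 3.68 on array B and 3.76 in control. Gclm, its modifier subunit (chromosome 3, 121962174 to 121964809), read 1.98, 2.04, 2.04, 2.45, 2.50 and 2.52 in that order of arrays. For Gclm the 3 arrays within each oxygen level spanned less than the scanner error, while the gap between the levels was 0.41.

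Gss, the synthase that adds glycine (chromosome 2, 155389432 to 155390531), read 2.33 in triple stimuli with rapamycin, 2.74 in triple stimuli, 2.52 in hypoxia, 2.95 on array A, 3.16 on array B and 3.103 in control. Gsr, the reductase that uses NADPH (chromosome 8, 34808488 to 34808547), read 5.41, 5.38, 5.34, 5.78, 6.03 and 5.91 on these arrays. Its second probe (34808413 to 34808472) gave 3.91, 3.84, 3.80, 4.26, 4.41 and 4.40, with the same division of arrays. The mean over 1% oxygen minus that over 20% was -0.61 for Gclc, -0.47 for Gclm, -0.54 for Gss and -0.53 for Gsr, against a median of -0.046 and a 5th percentile of -0.45 over all genes well above background on all arrays. The gap between the nearest arrays of the 2 oxygen levels was 0.20 for Gclc and for Gss and 0.38 for Gsr, of the size of the scanner error for the first 2 genes. Conditions within each oxygen level differ, so these arrays are not replicates, and slide row moves with oxygen.

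**Figure D3:**
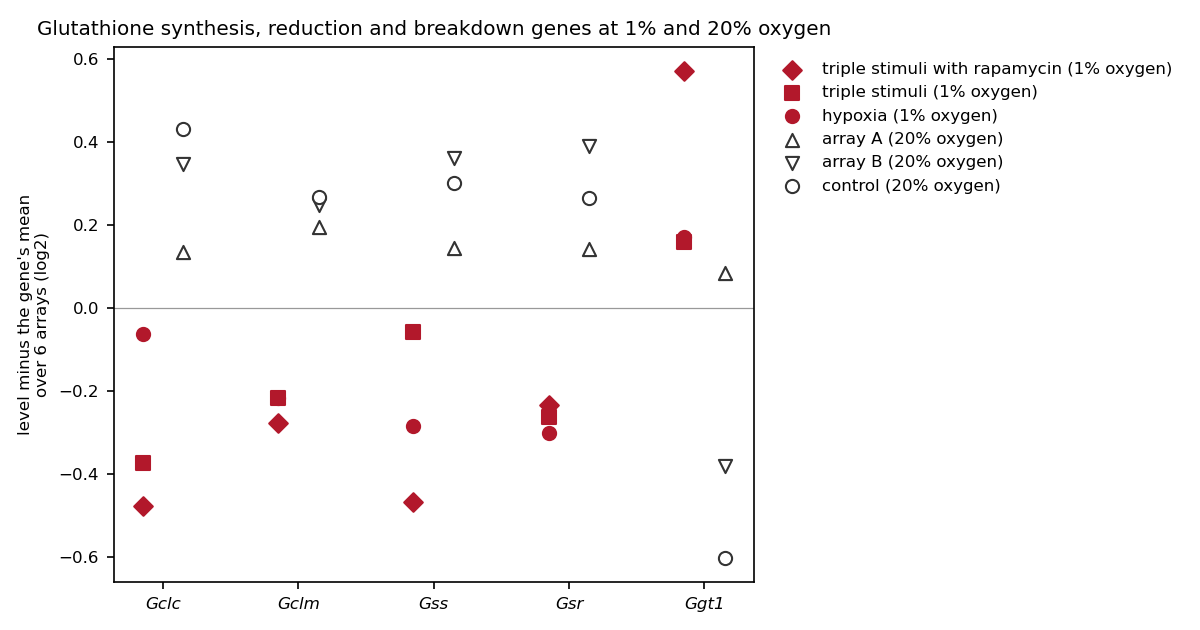
Level of 5 genes on each array minus the gene's mean over the 6 arrays (log2, vertical axis), with filled red points for the 3 arrays at 1% oxygen and open points for the 3 at 20%; there are no error bars because each point is 1 array. Gclc, Gclm, Gss and Gsr lay lower on every array at 1% oxygen than on every array at 20%, and Ggt1 lay higher, by a gap of 0.075.

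Within the arrays at 1% oxygen, adding glucose and palmitate was accompanied by a difference of -0.31 for Gclc, -0.00074 for Gclm, 0.23 for Gss and 0.04 for Gsr against hypoxia. Only that of Gclc and that of Gss exceeded the scanner error. Rapamycin was accompanied by differences of -0.10 for Gclc, -0.06 for Gclm, -0.41 for Gss and 0.03 for Gsr against triple stimuli. Gclc ended at 53.2% of control in triple stimuli with rapamycin (log2 difference -0.91), short of 2-fold, which it passed with median scaling (-1.07) and with scaling within bands of spot rows (-1.01).

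Ggt1, the gamma-glutamyltransferase that begins the breakdown of glutathione outside the cell (chromosome 10, 75048435 to 75048670), ran against the synthesis genes. Its levels were -1.02 in triple stimuli with rapamycin, -1.43 in triple stimuli, -1.42 in hypoxia, -1.51 on array A, -1.97 on array B and -2.19 in control. Control was the lowest array and triple stimuli with rapamycin the highest, with triple stimuli, hypoxia and array A nearly level between them. All 3 arrays at 1% oxygen lay above the 3 at 20%, as for 9.92% of 15088 genes, by a gap of 0.075 to array A that is under the scanner error. The order was lost with quantile normalization and with median scaling. Ggt1 was 2.26-fold higher in triple stimuli with rapamycin than in control (log2 difference 1.17) and 1.77-fold higher with normexp.

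The triple stimuli difference was compared with the 3 single differences from control added up, for the 7 genes well above background on all arrays. For Cbs the sum was -1.04 and the triple stimuli difference -1.11, and for Gclc they were -0.87 and -0.81. Gclm, Gsr, Gss and Cth departed from the sum by 0.09, 0.04, 0.32 and 0.43. Ggt1 lay below it by the widest margin, at 0.76 against a sum of 1.68. This departure of -0.92 was beyond the 5th percentile (-0.60) of the 15088 genes well above background on all arrays. With normexp the departures of Ggt1 and Cth were -0.60 and 0.067. The level in control enters the sum 3 times and was the lowest of the 6 for Ggt1.

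The genes closest in pattern to each of the 3 members with a range of at least 2-fold and a signal on all arrays were sought among 1106 genes, by the root mean square difference over the 6 arrays after centring. Nearest to Cth were Stard5, a lipid transfer protein gene (0.095 log2 units), Eps8, a substrate of the EGF receptor (0.18), and Rbp4, the retinol carrier (0.19). Stard5 was 1.25 above control on array A and -0.30 in triple stimuli with rapamycin. Nearest to Cbs were Kctd12 (0.13), Plxdc2 (0.14) and Cdc42ep2 (0.14), all lower than control on array A, by -1.40, -0.91 and -1.14. Nearest to Ggt1 were Letm2 (0.12), Klhl28 (0.13) and the transcription factor gene Tfap4 (0.13). All points share the same 6 arrays and the same scaling.

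The rest of the pathway, together with 15 genes of ATF4 and NRF2, their partners and targets, was described by 8 lists of 93 genes. On array A 8 of 76 measured genes were at least 2-fold higher and 1 lower, in triple stimuli 11 and 3 of 76, in hypoxia 4 and 0 of 77 and on array B 0 and 0 of 76, each against control. As shares in either direction these were 11.8% on array A (2.47% of all genes), 18.4% in triple stimuli (6.82%), 5.19% in hypoxia (4.87%) and 0% on array B (0.588%), so that hypoxia was near the share over all genes. With rapamycin against triple stimuli it was 0 and 0 of 74, where 4.08% of all genes were counted. The list of ATF4 and NRF2 factors held 5 of the 8 higher genes on array A, 8 of the 11 in triple stimuli and 3 of the 4 in hypoxia. The shares above are therefore not those of cystine and glutathione genes alone. Among the carriers of cystine, cysteine and glutamate 1 of 4 measured genes was higher on array A and in triple stimuli, Slc3a2, the heavy chain that pairs with the Slc7a11 product, at 1.39 and 1.61. Slc3a2 was 0.36 in hypoxia, 0.02 on array B and -0.34 with rapamycin against triple stimuli. Slc3a1, the heavy chain of the renal cystine transporter, was well above background in hypoxia only and at least 2.84 higher there than in control. Triple stimuli with and without rapamycin, also at 1% oxygen, did not read it well above background. In triple stimuli against hypoxia Slc3a1 was at -2.27 or less.

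The 9 measured genes of the methionine cycle had median log2 differences from control of -0.045 on array A (all genes -0.0086) and -0.062 in triple stimuli (all genes -0.0062). Of 8 genes of cysteine breakdown and sulfide handling 0 were counted on array A (2.47% of all genes). In triple stimuli it was 1 (6.82% of all genes), the sulfite oxidase gene Suox (-1.12). Csad, a decarboxylase of taurine synthesis, was at -1.12 in triple stimuli against hypoxia. In the breakdown of glutathione 1 of 8 genes was higher and 1 lower on array A and in triple stimuli. Of all genes 1.57% were higher and 0.903% lower on array A, and 5.09% and 1.74% in triple stimuli. Chac1, which encodes a cytosolic enzyme that cleaves glutathione and is a known ATF4 target, was at 1.66 and 1.93, and Ggt6, a relative of Ggt1, was at -1.16 and -1.61. Ggt1 itself was at 0.69 and 0.76 there, short of 2-fold.

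Genes of glutathione use and thiol reduction lay mostly below 0 in hypoxia and in triple stimuli. Of 18 measured genes 3 were above 0 in hypoxia, with a median of -0.25 (all genes -0.011), and 5 in triple stimuli, with a median of -0.26 (all genes -0.0062). Only Glrx, a glutaredoxin gene, was counted, at -1.41 in triple stimuli, where 6.82% of all genes were counted. On array A 7 of the 18 were above 0, with a median of -0.078 (all genes -0.0086) and 0 counted. On array B 17 of the 18 were above 0, with a median of 0.080 (all genes 0.017) and 0 counted. Of genes that both arrays read well above background, 46.1% were above 0 in hypoxia, 47.8% in triple stimuli, 49.1% on array A and 58.1% on array B. In hypoxia and in triple stimuli the genes not above 0 include a bound without direction, set to 0. Of the 8 genes of NADPH supply 0 were counted in any comparison, and 7 of the 8 were below 0 with rapamycin against triple stimuli (median -0.28, all genes -0.029). In that comparison 42.9% of genes that both arrays read well above background were above 0. Of the 6 measured genes of glutathione transport 0 were counted. Over all genes at most 6.82% were counted in a comparison, so 0 of 8 and 0 of 6 are near that share.

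Of 15 genes of ATF4 and NRF2, their partners and targets, 5 were higher on array A, 3 in hypoxia and 8 in triple stimuli, and 0 were lower, where 1.57%, 4.41% and 5.09% of all genes were higher. The ATF4 partners and targets Atf3, Ddit3 and Trib3 were at 2.99, 2.83 and 2.30 on array A and at 3.66, 2.95 and 2.72 in triple stimuli. Atf4 itself was at 0.97 and 1.17. In hypoxia Ddit3 was at 2.02 and Trib3 at 1.19. Atf3, Atf4, Cebpg and Cebpb were at 0.59, 0.42, 0.28 and 0.15 there, short of 2-fold. Slc7a11 was at or below -0.20 on that array, a bound within its scanner error of 0.43, and Cth was at -0.52. Whether ATF4 bears on these values was not tested. Nfe2l2, the gene of NRF2, was at 0.11, -0.26 and 0.39 on array A, in hypoxia and in triple stimuli. Among the NRF2 targets Hmox1 was at 1.71, 1.23 and 2.42 on these arrays and Nqo1 at 0.27, -0.59 and -0.44. The ligase genes, also known targets, were at -0.30, -0.49 and -0.81 (Gclc) and at -0.07, -0.48 and -0.48 (Gclm). On array B Nqo1 was at 0.51.

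**Figure D4:**
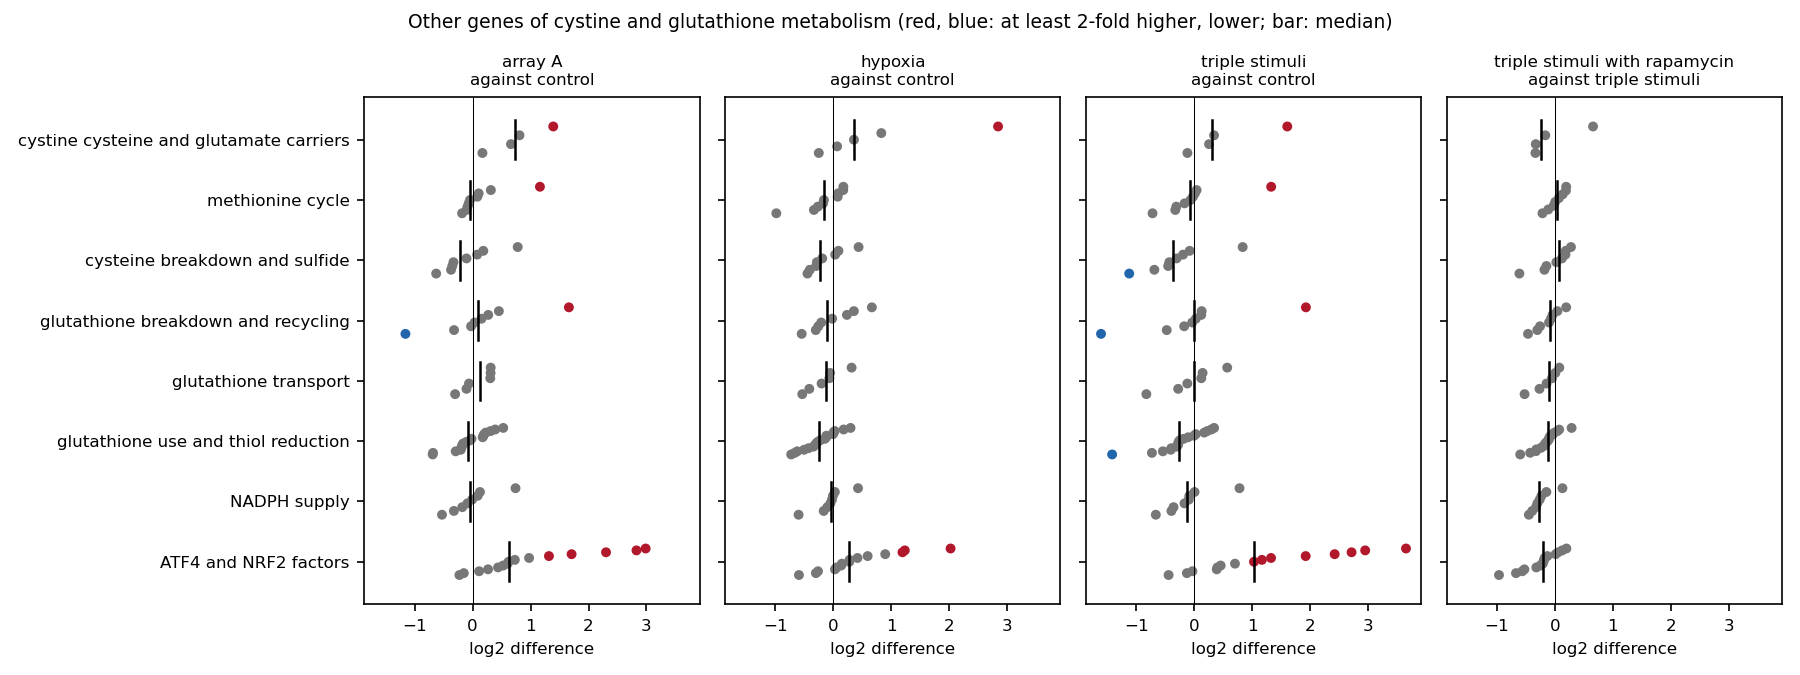
Log2 difference (horizontal axis) of the measured genes of 8 lists (rows) in 4 comparisons, the first-named array minus the second; each point is 1 gene, spread vertically in order of value, red and blue points are at least 2-fold higher and lower, and black bars are medians. The list of ATF4 and NRF2 factors held 5 red points on array A, 3 in hypoxia, 8 in triple stimuli and 0 with rapamycin against triple stimuli.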

How the data were processed

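The authors scanned single-colour arrays and extracted spots in Agilent Feature Extraction 10.7.3.1 (per the submitters' processing notes). Per the file headers, the deposited processed signal is a linear intensity, background-subtracted and not scaled between arrays, with an error and quality marks. The deposited value table holds a ratio, that signal divided by a constant per array, with column medians of 0.0561 (triple stimuli with rapamycin), 0.0544 (triple stimuli), 0.0562 (hypoxia), 0.0516 and 0.0535 (labelled high glucose and high FFAs) and 0.0505 (control). From each log2 signal the array's log2 75th percentile over non-control spots was subtracted, 683 spots with an outlier mark on any array were left out, spots of a probe were averaged (13 of 55681 probes were lost), and the probe with the highest mean stood for a gene. A side not well above background was set no lower than the dimmest spot of that array with the mark, which makes the difference a bound. Probe positions are on mm9, per the file headers, without exon annotation. The number of arrays limits the precision.

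The 8 genes, the 8 lists and the comparisons were chosen with earlier results of these data known. Named were all 8 genes, the up to 4 genes of a list with the largest differences among those counted, and the 3 closest in pattern. Other list genes (Atf4, Cebpb, Cebpg, Nfe2l2, Nqo1, and Slc3a2, Atf3, Ddit3 or Trib3 below 2-fold) and Cd68 were chosen after their values were seen. Some genes of the lists are not reported here by name. Calls were tested on simulated data with changes well past 2-fold and only the spread of spots within an array. That simulation therefore does not cover calls near 2-fold or the spread between cultures. Alternatives were normexp (limma 3.58.1, offset 50), quantile normalization, 2 other scaling sets, 6 bands of spot rows, the median of all probes, both arrays well above background, marked spots kept and the value table. Python 3.11.15 and pandas 2.3.3 were used.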

Additional observations from a re-analysis of the deposited data

How the results depend on the processing

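The 9 alternatives were applied to the log2 difference of each gene in the 7 comparisons and, chosen after seeing the data, to the sum of single differences and the oxygen order. Of 501 values of gene differences under an alternative 495 kept their side of 2-fold, 3 passed it only there and 3 fell short of it. The sign changed in 10, none of them counted and all at most 0.124 in size, for Gsr, Gclm and Ggt1, and in 4 of 63 departures from the sum. In triple stimuli with rapamycin against control the count was 1 with normexp (Cbs), against 3, since Slc7a11 (0.84) and Ggt1 (0.83) fell short. In triple stimuli with rapamycin against triple stimuli it was 1 with the median of all probes (Cth, -1.07), against 0. The cause was not tested. The number of genes with separate oxygen levels was 5, and 4 with quantile normalization and with median scaling, in each of which Gclc, Gclm, Gss and Gsr kept the order. Over all genes, the numbers higher and lower than control with normexp were 144 and 36 on array A (280 and 161 otherwise), 14 and 6 on array B (54 and 49), 493 and 19 in hypoxia (785 and 82), 515 and 115 in triple stimuli (906 and 309) and 478 and 135 with rapamycin added (823 and 323). Requiring both arrays above background gave 19 and 13 on array B, 397 and 45 in hypoxia, 490 and 229 in triple stimuli and 398 and 249 with rapamycin added, and the median of all probes 120 and 80 on array B. Between triple stimuli with rapamycin and triple stimuli the numbers were 334 and 370, 149 and 166 with normexp, and 58 and 89 on both arrays. Between triple stimuli and hypoxia they were 600 and 518, 315 and 219, and 308 and 208. Median scaling moved the median of all genes to -0.20 with rapamycin added, -0.12 in triple stimuli and -0.16 in hypoxia against control, and the split to 648 and 604, 746 and 465 and 629 and 165, and on array A to 226 and 206. No paired analysis was possible because each condition has 1 array. The dim probes of Slc7a11 and Ggt1 are limited by signal over background.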
